A study of Mus musculus with 8 samples.

Results

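Genes of heart muscle were measured in whole mouse lung. The heart muscle genes described here were the rows of the count table named Myh6, Actc1, Tnnt2, Tnni3, Nppa, Myl7, Myl4, Ryr2, Sln and Pln, and all 10 were found among the 54532 genes listed. All 10 also passed the filter on low counts, which kept 17138 genes. RNA sequencing had been done on lungs of CC-LR mice, in which Cre from the club cell secretory protein (CCSP) locus switches on an oncogenic allele in the lung epithelium, on a C57BL/6 background. All mice were 14 weeks old. There were 4 control mice, which carried the same alleles, and 4 mice treated for 4 weeks with TTI-101, a small-molecule inhibitor of STAT3, with 1 library per mouse. What the control mice received and how TTI-101 was given to these mice are not stated in the labels.

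In the mouse, sleeves of atrial-type cardiac muscle run from the left atrium along the pulmonary veins into the lung, so that genes of the contracting heart are transcribed in a lung sample. In such a cell a wave of calcium is let out of the sarcoplasmic reticulum through the ryanodine receptor, binds to troponin on the thin filament and allows myosin to pull on actin, and the SERCA pump then returns the calcium to its store. Atrial muscle uses its own myosin light chains and the SERCA inhibitor sarcolipin, and it secretes atrial natriuretic peptide. The genes do not separate vein muscle from atrial muscle taken along with the lung, and in whole tissue fewer muscle cells and less RNA per cell cannot be told apart.

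Of the 5 ventricular genes listed, Myl2, the regulatory light chain of the ventricle, had 0 to 10 counts in each library, and Irx4, a ventricular transcription factor, had 0 counts in all 8. Myl3, the ventricular essential light chain, had 55 to 121 counts in 7 libraries and 0 in control mouse 4, and Myh7 and Hey2, described below, were also measured. Bmp10, a growth factor of the atrium, had 1 count in 1 control library and 0 in the other 7.

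RefSeq promoters on GRCm38.p6, from 250 bases before to 50 bases after the annotated start, were matched for 9 of the 10 genes, all but Sln. They were searched on both strands for the CArG box bound by serum response factor, for the MEF2 site and for TATAAA at any position. They were also searched for GATAA as a GATA factor motif, for AGGTGT as a T-box motif and for AAGTG as an NKX2 motif. Matches of different motifs did not overlap in these promoters. The 250 bases before the start are shown for the 2 genes with a CArG box, Actc1 (chr2:114052876-114053125 on the minus strand) and Myl7 (chr11:5898783-5899032 on the minus strand), and for Nppa (chr4:148000472-148000721 on the plus strand), whose log2 CPM varied most among the 7 mice other than control mouse 4 (within-group SD 1.57). Each reads 5′ to 3′ along its gene, and capitals mark the CArG box, TATAAA and the GATA motif on either strand.
Actc1: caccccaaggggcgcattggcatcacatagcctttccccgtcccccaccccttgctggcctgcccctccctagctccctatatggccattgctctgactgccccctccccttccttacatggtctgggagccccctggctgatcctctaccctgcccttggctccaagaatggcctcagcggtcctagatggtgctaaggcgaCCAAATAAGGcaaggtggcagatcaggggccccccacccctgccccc
Myl7: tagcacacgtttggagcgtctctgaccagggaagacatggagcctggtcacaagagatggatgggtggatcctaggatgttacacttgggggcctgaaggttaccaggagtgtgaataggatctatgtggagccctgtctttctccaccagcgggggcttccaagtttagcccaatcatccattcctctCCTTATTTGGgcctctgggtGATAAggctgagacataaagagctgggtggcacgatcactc
Nppa: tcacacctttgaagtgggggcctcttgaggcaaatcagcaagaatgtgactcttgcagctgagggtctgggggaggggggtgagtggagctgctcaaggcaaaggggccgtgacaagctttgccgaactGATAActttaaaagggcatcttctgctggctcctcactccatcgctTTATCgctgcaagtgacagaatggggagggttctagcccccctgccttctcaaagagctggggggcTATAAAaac

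The CArG box was found in 2 of 9 promoters and in 1.57% of the promoters of 27025 genes. TATAAA was found in 4 of 9, those of Actc1, Nppa, Pln and Myh6, against 14.2% of all, and GATAA in 5 of 9 against 25.8%. Counted from the annotated start, the first base of TATAAA lay at -219 in Pln, -9 in Nppa, 2 in Myh6 and 34 in Actc1. The matches of Myh6 and Actc1 lie after the start, so that of Actc1 is not in the bases shown. AGGTGT was present in 2 of 9 against 13.9%, AAGTG in 5 of 9 against 46.5%, and the MEF2 site in 0 of 9 against 0.566%. These matches describe the letters in the window and are not evidence of binding.

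Library totals ranged from 16075855 to 26873509 counts. Control mouse 4 stood apart from the other 7 mice: 5.56% of its counts were mitochondrial against 2.01% to 2.85%, and it lay at 101 on the first principal component, which held 45.2% of the variance, against -39.3 to 17.9. Fold changes and list medians are given below with and without this mouse, with the filter on low counts applied anew in each fit. Xist counts were 6665 to 12254 in mice 1 and 2 of each group and 3 to 33 in mice 3 and 4, so each group had 2 mice with and 2 without high Xist. Stat3, whose protein the drug targets, had a log2 fold change of -0.08 (adjusted p = 0.886, edgeR), and its transcript does not measure STAT3 inhibition.

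The comparison asked whether heart muscle transcripts differed between lungs of control and TTI-101-treated mice. Levels are given as CPM, the counts of a gene relative to the library total after scaling by edgeR's trimmed mean of M values (TMM). The summed level of the 10 genes was 452, 962, 829 and 106 CPM in control mice 1 to 4 and 789, 1747, 690.3 and 679 CPM in TTI-101-treated mice 1 to 4. Control mouse 4 was the lowest of all and treated mouse 2 the highest, while the other 6 mice of both groups lay between 452 and 962 CPM.

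**Figure D1:**
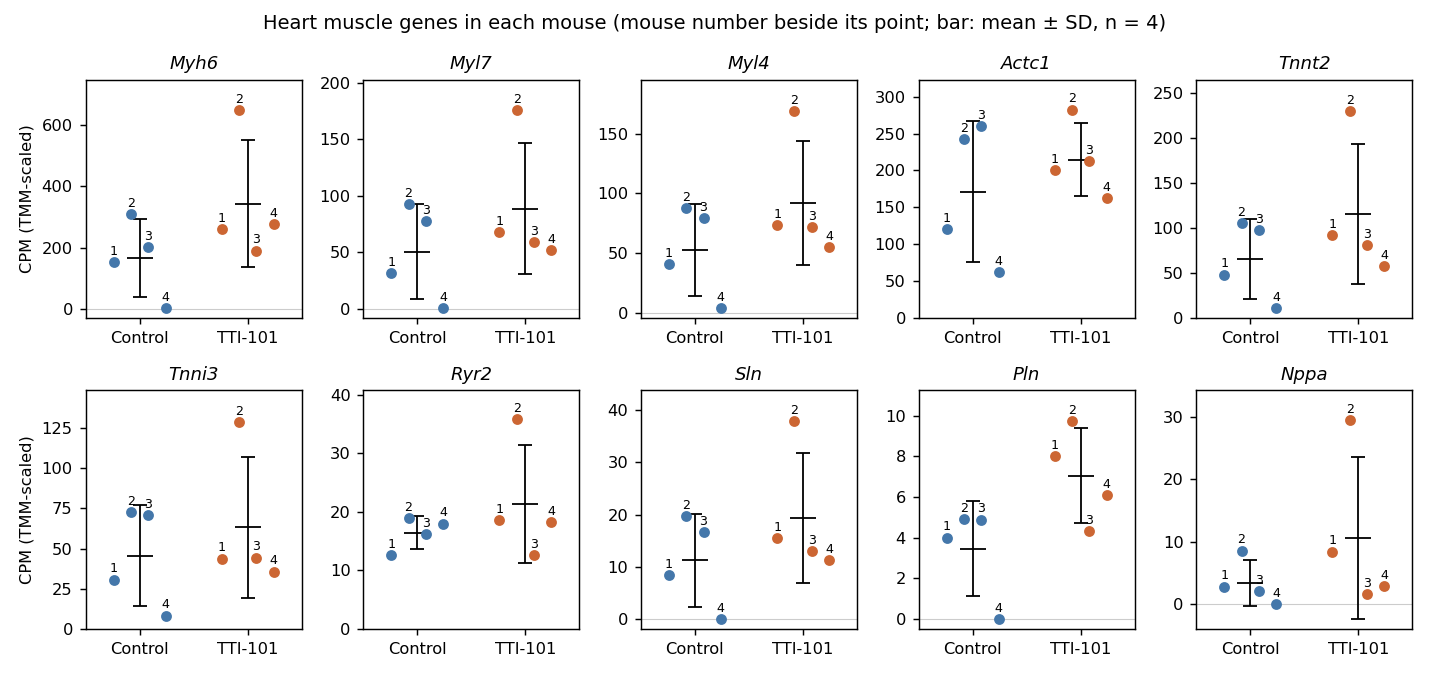
CPM (TMM-scaled, linear axis) of each heart muscle gene in the 4 control (blue) and 4 TTI-101-treated (orange) mice, with the mouse number beside each point and bars for mean ± SD. Treated mouse 2 has the highest point for all 10 genes, and control mouse 4 the lowest for all but Ryr2.

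Of the thick filament genes, Myh6 encodes the alpha-myosin heavy chain, the motor of atrial and adult mouse heart muscle (ENSMUSG00000040752, chr14:54941921-54966927, mm10). Its level was 151, 309, 202 and 0.959 CPM in the control mice and 261, 649, 190.1 and 276 CPM in the treated mice. Treated mouse 3 lay below control mice 2 and 3, so the groups overlapped. The group means were 166 ± 128 and 344 ± 207 CPM (SD, n = 4), a log2 fold change of 1.05 (SE 0.96) that did not pass edgeR's quasi-likelihood test (Benjamini-Hochberg adjusted p = 0.745).

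Myl7 encodes the atrial regulatory light chain, and was at 31.8, 92.9, 77.9 and 0.704 CPM in control and 68.0, 175, 59.4 and 52.4 CPM in treated mice. Myl4 encodes the atrial essential light chain, and was at 40.8, 87.5, 79.6 and 4.09 CPM in control and 73.5, 169, 71.7 and 55.4 CPM in treated mice. For both light chains control mice 2 and 3 lay above 3 of the 4 treated mice. Their log2 fold changes were 0.80 (SE 0.87) for Myl7 and 0.80 (SE 0.68) for Myl4, with adjusted p-values of 0.784 and 0.727 by edgeR.

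Among the thin filament genes, Actc1 encodes cardiac alpha-actin, on which the myosin pulls. Its level was 121, 242, 261 and 62.4 CPM in control and 201, 282, 212 and 163 CPM in treated mice. It kept the narrowest range of the 10 genes apart from Ryr2, and its means of 171 ± 95.6 and 215 ± 49.9 CPM (SD, n = 4) differed by a log2 fold change of 0.32 (SE 0.38, adjusted p = 0.802, edgeR). Tnnt2, cardiac troponin T, which ties the troponin complex to tropomyosin, was at 48.4, 105, 98.0 and 11.6 CPM in control and 92.0, 229.6, 80.8 and 58.2 CPM in treated mice. Tnni3, the inhibitory subunit cardiac troponin I, was at 30.7, 72.7, 71.0 and 8.25 CPM in control and 43.7, 129, 44.4 and 35.7 CPM in treated mice. Control mice 2 and 3 again lay above treated mice 1, 3 and 4 for both troponin genes. The log2 fold changes were 0.81 (SE 0.60) for Tnnt2 and 0.47 (SE 0.60) for Tnni3, with adjusted p-values of 0.6999 and 0.823 by edgeR.

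Ryr2, the calcium release channel, behaved differently from the filaments. It was at 12.6, 18.9, 16.2 and 18.0 CPM in control and 18.6, 35.8, 12.6 and 18.2 CPM in treated mice. Control mouse 4 was within the range of the other controls, and control mouse 1 was the lowest library. Ryr2 had a log2 fold change of 0.38 (SE 0.29, adjusted p = 0.707, edgeR).

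Sln and Pln encode sarcolipin and phospholamban, small membrane proteins that hold back the SERCA pump. Sln was at 8.47, 19.7, 16.7 and 0 CPM in control and 15.5, 37.9, 13.0 and 11.3 CPM in treated mice. Pln was at 4.00, 4.90, 4.88 and 0 CPM in control and 7.99, 9.73, 4.34 and 6.08 CPM in treated mice. Treated mouse 3 was the only treated mouse to fall within the control range of Pln, whereas Sln overlapped in 3 treated mice. Log2 fold changes were 0.79 (SE 0.87) for Sln and 1.02 (SE 0.75) for Pln, with adjusted p-values of 0.789 and 0.695 by edgeR.

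Nppa, the precursor of atrial natriuretic peptide, was at 2.79, 8.55, 2.00 and 0 CPM in control and 8.40, 29.5, 1.56 and 2.80 CPM in treated mice. Treated mouse 2 stood far above the rest, and treated mouse 3 was below 3 controls. Nppa had the largest log2 fold change of the 10 genes at 1.66 (SE 1.06, adjusted p = 0.667, edgeR).

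All 10 log2 fold changes were positive, where 50.6% of all genes tested were, and their median was 0.80 against 0.0034 over all genes. By edgeR's quasi-likelihood test 0 of the 10 genes passed an adjusted p of 0.05, as did 0% of all genes. At an unadjusted p under 0.05 there were 0 of 10, against 6.61% or 1132 of all genes. DESeq2 and limma-voom also called 0 of the 10 genes, and among all genes DESeq2 called 4 and limma-voom 0. The 2 groups overlapped for all 10 genes, and were separate for 2.96% of all genes. These 10 signs are not 10 observations, since the genes moved together from mouse to mouse. Without control mouse 4 all 10 remained positive with a median of 0.43 (all genes 0.017), from 0.06 (SE 0.27) for Actc1 to 1.27 for Nppa, and Myh6 was at 0.65 (SE 0.40). Without treated mouse 2 the median was 0.25, with Tnni3 at -0.13 and Ryr2 at 0.02.

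**Figure D2:**
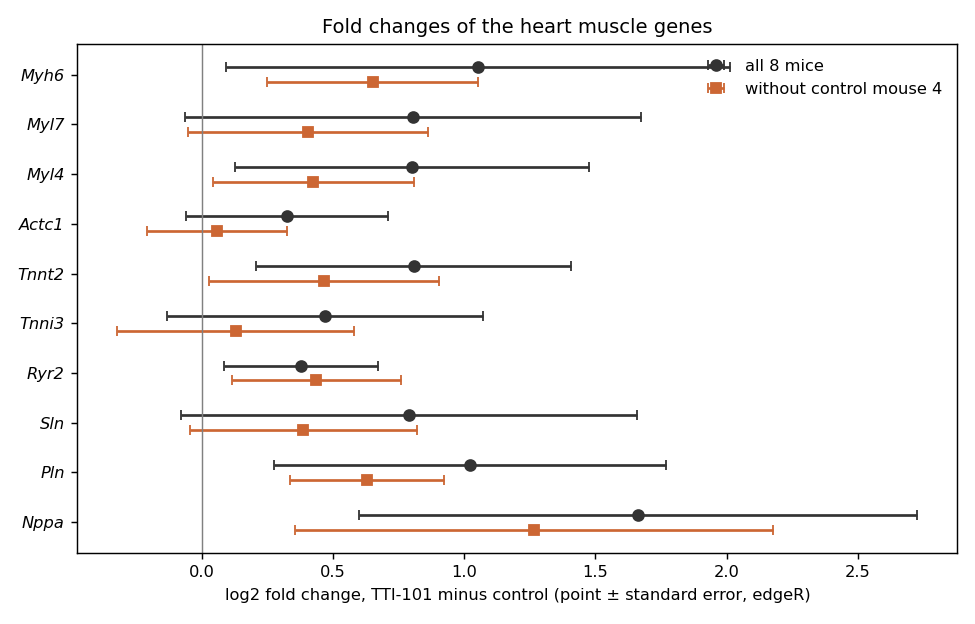
Log2 fold change of each gene, TTI-101 minus control, with its standard error from edgeR, for all 8 mice (black circles) and without control mouse 4 (orange squares). All points lie above 0, from 0.32 for Actc1 to 1.66 for Nppa with all mice, and 9 of 10 move towards 0 without control mouse 4, Ryr2 going from 0.38 to 0.44.

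Levels of different genes were set side by side only per kilobase, by the longest coding transcript. The median over the 8 libraries was 140.2 CPM per kilobase for Actc1, 108 for Myl7, 77.0 for Myl4, 72.0 for Tnnt2, 48.3 for Tnni3 and 37.9 for Myh6. Membrane and hormone genes were lower, with 10.8 for Sln, 3.23 for Nppa, 2.10 for Pln and 1.077 for Ryr2. With the gene lengths in the count table, which join all exons, Myh6 at 34.4 came directly after Myl7, and Tnnt2 at 11.1 and Myl4 at 15.7 CPM per kilobase came after Tnni3. Some neighbours in this order overlapped widely across mice. Actc1 spanned 82.0 to 192 and Myl7 53.9 to 297 CPM per kilobase in the 7 mice other than control mouse 4. In the same mice Myh6, at 24.7 to 106, and Sln, at 6.43 to 28.7, barely overlapped. These are ranges across mice and do not compare genes within a mouse.

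Control mouse 4 was set against the mean of control mice 1 to 3 as a description. Its Myh6, at 15 counts, was 0.434% of that mean and its Myl7, at 11 counts, 1.04%. Nppa, Sln and Pln had 0 counts, which at a limit of 3 counts (0.192 CPM) put Sln at least 78.0-fold, Pln at least 23.9-fold and Nppa at least 23.2-fold lower. Myl4 was at 5.91%, Tnnt2 at 13.8%, Tnni3 at 14.2%, and Actc1 was 3.33-fold below the mean. Ryr2 was at 113%. Thus 6 of the 10 genes were under 0.1 of the median of the other 7 libraries, against 1.87% of all genes, and 9 of 10 were lowest in this library, against 28.7%.

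**Figure D3:**
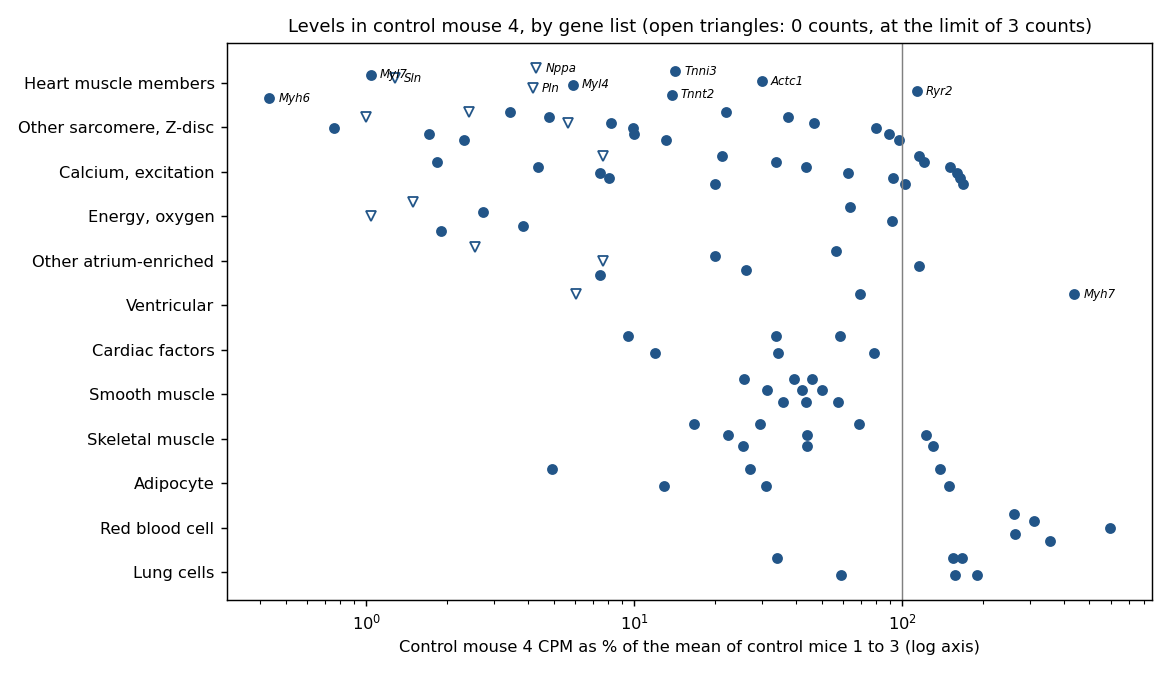
Level of each tested gene in control mouse 4 as a percentage of the mean of control mice 1 to 3 (log axis), by gene list, with genes at 0 counts drawn as open triangles at the limit of 3 counts. The heart muscle genes run from 0.434% for Myh6 to 113% for Ryr2, smooth muscle genes cluster around 42.2%, and Myh7 lies at 438%.

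The proportions between the genes were also different in this mouse. For each count of Myh6 the other 7 mice had 0.190 to 0.386 counts of Myl7, 0.201 to 0.394 of Myl4 and 0.211 to 0.485 of Tnnt2. Control mouse 4 had 0.733 of Myl7, 4.27 of Myl4 and 12.1 of Tnnt2. Actc1 stood at 0.435 to 1.29 counts per count of Myh6 in the other 7 mice and at 65 in control mouse 4, and Ryr2 at 0.0552 to 0.0832 and at 18.7. The remaining counts of this mouse, not scaled for gene length, were thus mostly Actc1 at 975, Ryr2 at 281, Tnnt2 at 181 and Tnni3 at 129.

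Myh7, the beta-myosin heavy chain next to Myh6 on chromosome 14, went the other way. It was at 61.0, 64.0, 64.8 and 277 CPM in control and 43.0, 53.9, 23.3 and 42.8 CPM in treated mice. Its log2 fold change was -1.52 (SE 0.50, adjusted p = 0.657, edgeR), and control mouse 4 was the highest of the 8. Without that mouse the log2 fold change was -0.62 (SE 0.24, adjusted p = 1.00, edgeR). The 2 myosins are near-identical over long stretches, so reads that fit both may have been split or dropped by the counting, which is not described.

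Treated mouse 2 was the highest library for all 10 genes, against 13.3% of all genes. Its level was 3.21-fold the median of the other 7 for Myh6, 2.95-fold for Myl7 and Tnni3, 2.91-fold for Sln, 2.84-fold for Tnnt2 and 2.36-fold for Myl4. Pln and Ryr2 were at 1.99-fold, Actc1 at 1.41-fold and Nppa at 10.6-fold. Per count of Myh6 it had 0.270 counts of Myl7, 0.354 of Tnnt2 and 0.0584 of Sln. The medians over the 7 mice other than control mouse 4 were 0.270, 0.353 and 0.0593. Treated mouse 2 is among these 7 and is itself the median for Myl7, so nearness to these medians is partly built in. In the same 7 mice its Actc1, Ryr2 and Pln per count of Myh6 were the lowest and its Nppa the highest.

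Mice of 1 group differed more in these genes than in most. The within-group SD of log2 CPM had a median of 1.75 over the 10 genes and 0.334 over all genes, and 0.338% of genes had a larger SD than that. Without control mouse 4 the values were 0.70, 0.295 and 8.33%. When the mean of the other members was subtracted in each mouse, the median SD was 0.96 with all mice and 0.25 without control mouse 4. Sln at 0.135, Myl4 at 0.204 and Tnnt2 at 0.222 followed the others most closely in those 7 mice, and Nppa at 1.14 least.

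The genes whose log2 CPM correlated best with the mean of the 10 over the 8 libraries were Myom2 (Pearson r = 0.996), Mybpc3 (0.996), Smpx (0.994), Eef1a2 (0.994), Hrc (0.993), Hamp (0.992), Actn2 (0.990), Mapk10 (0.989), Fabp3 (0.989) and Myoz2 (0.989). Myom2, Mybpc3, Actn2 and Myoz2 encode proteins of the sarcomere, Hrc binds calcium in the sarcoplasmic reticulum, and Fabp3 carries fatty acids in heart muscle. Of these, 7 were in the heart lists described next. Control mouse 4 alone spans much of each correlation. Without it Ckmt2, the mitochondrial creatine kinase of striated muscle, was first at 0.983, and 5 of the 10 genes were shared.

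**Figure D4:**
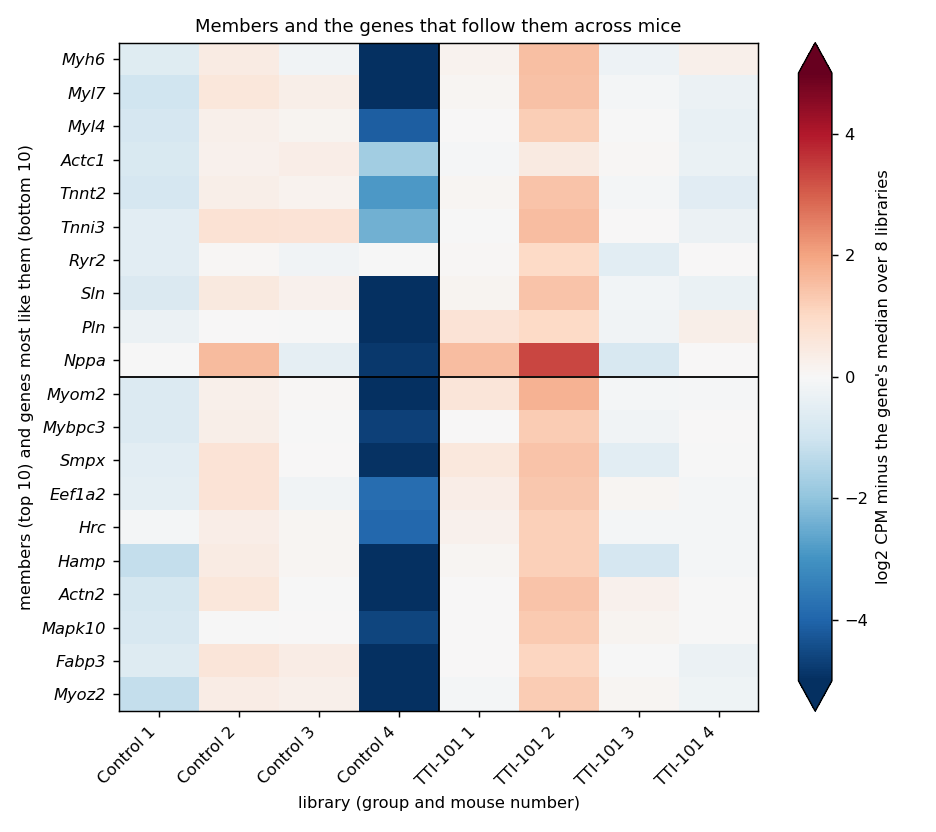
Log2 CPM of each gene minus its median over the 8 libraries, for the 10 heart muscle genes (above the line) and the 10 genes most like them (below), with control libraries left and treated libraries right; the colour scale ends at -5 and 5. Control 4 is blue for all rows except Ryr2, and TTI-101 2 is red throughout.

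Other genes of the same muscle were read from lists. All 18 other sarcomere and Z-disc genes had positive log2 fold changes with a median of 0.79, and 0 passed the test. Myom2, which ties myosin at the M-band, had the largest at 1.23 (SE 0.76, adjusted p = 0.661), and Ttn, the giant spring titin, ranged from 22.9 to 39.8 CPM in control mice 1 to 3 and from 22.8 to 67.6 CPM in treated mice, with 1.41 CPM in control mouse 4. Tpm1 (472 ± 19.1 against 474 ± 66.5 CPM) and Cryab (173 ± 72.7 against 209.5 ± 30.8 CPM, SD, n = 4), a tropomyosin and a chaperone found in many cell types, were the most abundant of the list. In control mouse 4, 11 of the 18 were under 0.1 of the median of the other mice, and 15 were highest in treated mouse 2. Without control mouse 4, 16 of the 18 were positive with a median of 0.44.

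Of 18 other genes of calcium handling and excitation, 13 had positive and 5 negative log2 fold changes with a median of 0.32, and 0 passed the adjusted test. Control and treated means are given in that order. The most abundant were Atp2a2, the SERCA pump itself, at 414 ± 46.9 and 463 ± 91.0 CPM, and Gja1, the gap junction protein connexin 43, at 102 ± 31.7 and 92.6 ± 9.16 CPM (SD, n = 4). Atp2a2 was at 423 CPM in control mouse 4, the mouse nearly without Myh6. Kcnj5, a subunit of the atrial acetylcholine-gated potassium channel, had the largest log2 fold change at 1.31 (SE 0.58, adjusted p = 0.657, edgeR). With Gja5 it was 1 of 2 of the 18 genes at an unadjusted p under 0.05 by edgeR, against 6.61% of all genes. Of the 18, 15 were positive and 3 negative with a median of 0.14 without control mouse 4.

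All 7 energy and oxygen genes of striated muscle were positive with a median of 0.55, led by Mb, myoglobin, at 13.9 ± 10.7 and 30.4 ± 14.4 CPM (SD, n = 4) and 0 CPM in control mouse 4. Cox6a2, a muscle subunit of cytochrome c oxidase, was at 34.4 ± 2.41 and 34.6 ± 21.1 CPM (SD, n = 4), and it stayed at 32.2 CPM in control mouse 4. With control mouse 4 left out, 5 of the 7 were positive and 2 were negative, with a median of 0.16 and Mb at 0.73 (SE 0.35). The 7 tested genes of the other atrium-enriched list, 4 of which (Gja5, Kcna5, Kcnj3 and Kcnj5) were already counted above, were positive with a median of 0.97, and of 0.75 without control mouse 4, among them Gja5, connexin 40, and Mybphl, a myosin-binding protein of the atrium. Mybphl was at 5.80, 8.91, 7.99 and 0 CPM in control and 11.3, 24.7, 11.5 and 8.70 CPM in treated mice, and the groups met only where treated mouse 4 fell below control mouse 2. Of 12 cardiac transcription factors 6 were tested, all positive with a median of 0.60 (0.47 over 9 genes without control mouse 4), and Hand1 had 0 counts in all libraries. Mef2a and Tbx3 were the most abundant at 125 ± 23.7 and 99.5 ± 43.5 CPM in control lungs (SD, n = 4), and Tbx20 had the largest log2 fold change at 1.32 (SE 0.61, adjusted p = 0.657, edgeR).

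The ventricular list had 3 tested genes of 5, with 2 positive, 1 negative and a median of 0.21 (0.11 without control mouse 4). Myl3 had a log2 fold change of 0.99 (SE 0.74, adjusted p = 0.6999, edgeR), and 0.60 without control mouse 4. Apart from Myh7 its most abundant gene, Hey2, was at 5.36 ± 1.70 and 6.20 ± 1.30 CPM (SD, n = 4).

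Markers of other cells were read in the same mice. Skeletal muscle genes gave 3 positive and 6 negative log2 fold changes among the 9 tested of 19, with a median of -0.12 (-0.29 over 11 genes without control mouse 4), and most of the rest were at or near 0 counts except in control mouse 1, which had 475 counts of Acta1 and 219 of Myh4. Their summed level was 85.5 CPM in that mouse and 13.9 to 31.9 CPM in the other 7. Tnnt3 and Mybpc2 led the list at 6.89 ± 3.83 and 3.33 ± 0.775 CPM in control lungs (SD, n = 4), and Myl1 had the largest log2 fold change at 0.93.

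Smooth muscle genes had 7 positive and 2 negative log2 fold changes of 9 with a median of 0.16. They had 5 positive and 4 negative without control mouse 4, with a median of 0.0021. Their summed level ran from 521 CPM in control mouse 4 to 1731 CPM in treated mouse 2, the same mice that were lowest and highest for the heart muscle genes. Control mouse 2 was close to the highest at 1650 CPM. Of the 9 genes, 5 were highest in treated mouse 2, Des among them, and Acta2 was highest in control mouse 2. In control mouse 4 the median gene was at 42.2% of the other controls. Acta2 was at 330.4 ± 160.5 and 337 ± 90.9 CPM and Des, which cardiac muscle also expresses, at 216 ± 120.2 and 263 ± 120.4 CPM (SD, n = 4). Red blood cell genes did not share this order. Their summed level was 58.5 to 264 CPM in control and 205 to 1587 CPM in treated mice, highest in treated mouse 1, with 5 of 5 tested genes positive, a median of 2.50, and Hbb-bs, Hba-a1 and Alas2 at 2.46, 2.50 and 2.87. The median over 6 genes was 3.04 without control mouse 4.

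Adipocyte genes were positive in 5 of 6 with a median of 1.11 (6 of 6 and 0.98 without control mouse 4), and their summed level was lowest at 10.2 CPM in control mouse 4 and highest at 69.7 CPM in treated mouse 3. Cidec, Plin1 and Adipoq, genes of fat storage and of the fat hormone adiponectin, had log2 fold changes of 1.09, 2.00 and 2.10. Lung cell genes, led by Sftpc and Scgb1a1, were positive in 2 of 6 with a median of -0.43 (2 of 6 and -0.18 without control mouse 4). Their sum was highest, at 88184 CPM, in control mouse 4. Sftpc, Sftpb, Scgb1a1 and Foxj1 were highest in that mouse. Ager and Pecam1 were lowest there, at 59.1% and 34.0% of the mean of control mice 1 to 3. No gene of these lists passed the adjusted test. At an unadjusted p under 0.05 by edgeR were 4 of 5 red blood cell, 3 of 6 adipocyte and 1 of 6 lung cell genes. So were 3 of 7 atrium-enriched genes, 1 of 6 cardiac transcription factors and 1 of 3 ventricular genes. No sarcomere, energy, skeletal or smooth muscle gene was, and the share over all genes was 6.61%. The part of each of these cell types in the levels of the heart muscle genes was not tested.

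**Figure D5:**
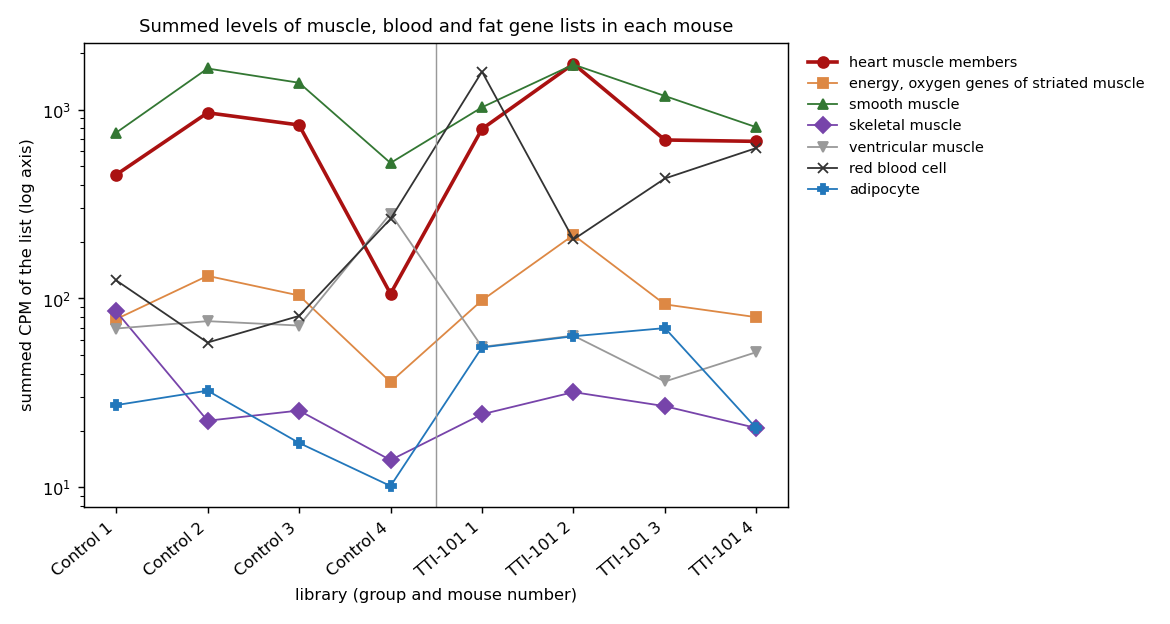
Summed CPM (log axis) of the heart muscle genes and of 6 other lists in each library, controls left of the line. The heart muscle sum runs from 106 CPM in Control 4 to 1747 CPM in TTI-101 2. The smooth muscle sum runs from 521 to 1731 CPM in the same 2 libraries, with Control 2 at 1650 CPM. The ventricular sum peaks in Control 4 at 282 CPM, of which Myh7 is 277 CPM, while Myl3 and Hey2 are lowest there.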

How the data were processed

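Whole-lung RNA of 8 CC-LR mice (4 control, 4 TTI-101) had been poly(A)-selected with a stranded kit and sequenced as paired ends. The authors deposited raw whole-number counts for each Ensembl gene, with a gene length that joins all exons. The submitters' processing notes name STAR, DESeq2 and mm10, without versions. The counter, the annotation and the strand setting are not given in the sources used here, so reads of overlapping, antisense and near-identical genes (Myh6 and Myh7, the actins) may be shared. Of the 54532 genes, 54409 had an identifier in GENCODE M21.

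Counts were fitted in R 4.3.3 with edgeR 4.0.16 (filterByExpr with a minimum count of 10, TMM scaling, quasi-likelihood test, no covariate), and p-values were adjusted by Benjamini-Hochberg over the 17138 genes kept. Limma 3.58.1 (voom) and DESeq2 1.42.0 were alternatives, as were other scalings and filters, a replicate block, sex read from Xist and each library left out. The Xist term, and leaving control mouse 4 out of the spread, of the other lists' genes and of the genes most like the members, were chosen after seeing the data. Log2 CPM used a prior count of 2. On simulated data for this comparison edgeR recovered 185 of 200 genes changed by a log2 of 2, with 5 false calls among 16868 genes. Recovery at the spread of the 10 heart muscle genes was not tested separately.

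The 10 genes and the 11 other lists were chosen with earlier results of these data known. Named besides the 10 genes were, in each list, the 2 with the highest mean CPM, the one with the largest absolute log2 fold change and markers at 0, the 10 genes most correlated with the members, and Stat3. Some genes that this rule or the lists name are not reported here. Other genes named were chosen after their values were seen. The labels number the mice of each group but do not describe cultures, litters or batches, and p-values measure the spread between these samples. Total counts were 16075855 to 26873509 per library, and limits from 3 counts cover counting error only.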

Additional observations from a re-analysis of the deposited data

Results flagged for a closer look

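In all, 6 values stood apart from their own group of 4 mice by Dixon's ratio, each above the critical value of the 95% test. The ratio is the gap to the nearest mouse over the range of the group. It was taken on log2 levels, so it cannot be read from the CPM given here. Control mouse 4 was low for Myh6 (0.874), Sln (0.841) and Pln (0.949), with 0.959 CPM of Myh6 and 0 counts of the other two. Treated mouse 2 was high for Tnni3 (0.831) and for the summed level of the heart muscle genes (0.840), at 129 CPM and 1747 CPM. Control mouse 4 was high for the summed ventricular genes (0.936), at 282 CPM against 69.3 to 75.9 CPM in the other controls, nearly all of it Myh7. A total of 44 groups were examined, of which chance passes about 1 in 20, or 2.2, and the 44 share the same 8 mice. The cause of these values was not tested.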

How the results depend on the processing

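The 10 genes kept a positive median log2 fold change under every alternative run, and 0 of them passed an adjusted p of 0.05 under any. The median was 0.80 in edgeR, 0.81 with DESeq2's size factors, with library totals and with no filter, 0.73 with a term for sex, and 1.58 with limma-voom, for which the cause was not tested. With at least 10 counts in every library Nppa, Sln and Pln drop out, and the median of the other 7 was 0.80. Over all genes DESeq2 called 4 where edgeR called 0. Leaving out 1 library at a time gave 0 to 1 called genes, 1 without control mouse 1 and 1 without treated mouse 3, and a median of the members from 0.25 without treated mouse 2 to 1.18 without control mouse 2. Tnni3 ranged from -0.13 without treated mouse 2 to 0.79 and was the only member to change sign. Without control mouse 4 the median within-group SD of the members was 0.70 in place of 1.75, and after subtraction of the other members 0.25 in place of 0.96. Of the 10 genes most like the members, 6 were shared when deviations from the group means were used and 5 without control mouse 4. The groups share replicate numbers, but the deviations of same-numbered mice correlated at 0.393, 0.0822, 0.158 and 0.0707, and control mouse 3 correlated best with treated mouse 2, so the numbers were not taken as pairs. With a replicate block the median was 1.23 and 0 members were called, with Tnnt2 at an unadjusted p of 0.0340 in edgeR. Scaling moved the median of all genes to at most 0.0406. With 4 mice a group and this spread between them, the SE of Myh6 was 0.96 on the log2 scale, which limits the differences that can be detected.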
